A study of Mus musculus with 12 samples.

Results

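RNA was compared between macrophages grown from the marrow of Irg1KO mice and of wild-type (WT) mice, both given vehicle for 12 h. The comparison takes the 3 libraries labelled Irg1KO vehicle and the 3 labelled WT vehicle, 6 of the 12 libraries of the study, and every gene listed in them. Bone marrow-derived macrophages (BMDMs) are adherent phagocytes grown from marrow precursors. Here both genotypes were cultured for 7 days in α-MEM with serum, antibiotics and the growth factor M-CSF. The other 6 libraries were of WT cells given 120 µM 4-octyl itaconate (4-OI) for 15 h or 15 µM hemin for 12 h. They entered the fit to share its estimate of the spread, and so also the filter on low counts and the scaling. The labels name no vehicle, strain, age or sex of the mice, and they do not say how the allele was made or whether the WT mice were littermates. Nor is it given whether the replicates are separate mice or cultures. The p-values therefore reflect library-to-library spread alone, and that spread may be technical.

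Irg1 is an older name of Acod1, which encodes aconitate decarboxylase 1. This mitochondrial enzyme makes itaconate from cis-aconitate, an intermediate of the tricarboxylic acid (TCA) cycle, mainly in macrophages exposed to microbial products. Itaconate inhibits succinate dehydrogenase, and electrophilic forms of it modify the sensor KEAP1 and so release the antioxidant transcription factor NRF2. The cells compared here received no inflammatory stimulus. Marrow from which macrophages are grown also holds stromal cells, which make collagen and other extracellular matrix.

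Levels are CPM, a gene's counts relative to its library's total after TMM scaling, and differences are log2 fold changes, knockout minus wild type, with their standard error (SE). A gene was called when its adjusted p in edgeR's quasi-likelihood test was under 0.05. Of 15723 genes listed in at least 1 of the 6 libraries, 12148 had enough counts to be tested. Totals were 12518096 to 17264634 counts in the knockout libraries and 10983784 to 22390882 in the wild-type libraries. Of the tested genes, 2850 were called higher in the knockout libraries (23.5%) and 1983 lower (16.3%), together 39.8%. These shares are the background for the counts called in each gene list below. The 2 directions differed in size: 1400 genes were called and at least 2-fold higher (11.5%), and 52 were called and at least 2-fold lower (0.428%). Among the lower genes, 1716 fell by less than 0.5 on the log2 scale. The median log2 fold change over all tested genes was -0.0003. The groups did not overlap for 3316 tested genes with the knockout libraries above and for 2720 with them below. Statements below that groups did not overlap are to be read beside these counts. Differences of at least 2-fold were commonest at low levels, with 1149 of the 1400 higher genes under a mean of 20 CPM. Even so, these 1400 genes held 5.59 to 6.29% of all counts in each knockout library and 1.36 to 1.52% in each wild-type library.

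**Figure D1:**
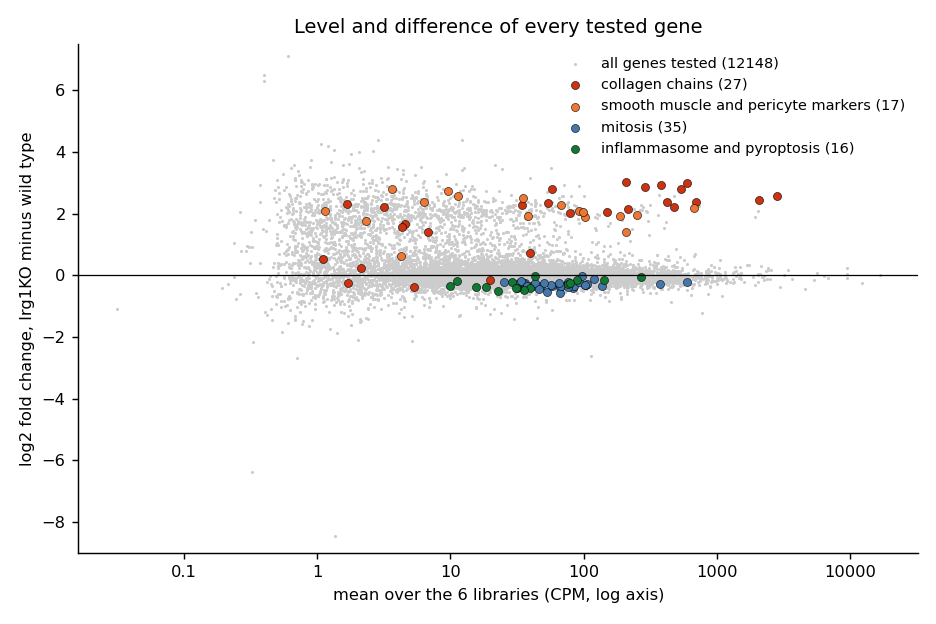
Mean level over the 6 libraries (CPM, log axis) against the log2 fold change, knockout minus wild type, for each of the 12148 tested genes (grey points), with 4 gene lists in colour. Most collagen and smooth muscle genes lie near a log2 fold change of 2 (list medians 2.21 and 2.07) at all levels, while the genes of mitosis and of the inflammasome lie in a narrow band below 0.

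Acod1 itself, the gene named by the genotype, was at 21.7, 13.6 and 26.3 CPM in the knockout libraries and 27.5, 30.5 and 25.01 CPM in the wild-type libraries. One knockout library, at 26.3 CPM, lay above the lowest wild-type library, and the difference was not called (log2 fold change -0.48, SE 0.26, adjusted p = 0.194). It was called in the fits on FPKM with 1 or 0.1 added (log2 fold change -0.71 and -0.79, limma adjusted p = 0.015 and 0.0221), which divide by transcript length, and without a filter on low counts (log2 fold change -0.50, adjusted p = 4.38e-09). The deposited mean transcript length of Acod1 separated the genotypes. It was 3135, 3382 and 3132 bases in the knockout libraries, 2644, 2653 and 2635 bases in the wild-type vehicle libraries, and 2594 to 2633 bases in the 6 libraries given 4-OI or hemin. The knockout mean was 1.22 times that of wild-type vehicle. Over the 7060 genes averaging 20 CPM or more, 398 were longer in all 3 knockout libraries than in any wild-type library and 475 were shorter. Of these 3 had a shift as large as that of Acod1, and Acod1 was the only one of the 3 that was longer. Over all 12103 tested genes with a length, low ones included, 28 had a shift as large, 15 of them longer. Arglu1 and Rbm4b, both encoding splicing factors, were shorter, at 0.799 and 0.728 times the wild-type length; they were chosen after their values were seen. The files list 2 transcripts for Acod1, 1 of them named by the submitters as new, and the reads were not analysed here.

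**Figure D2:**
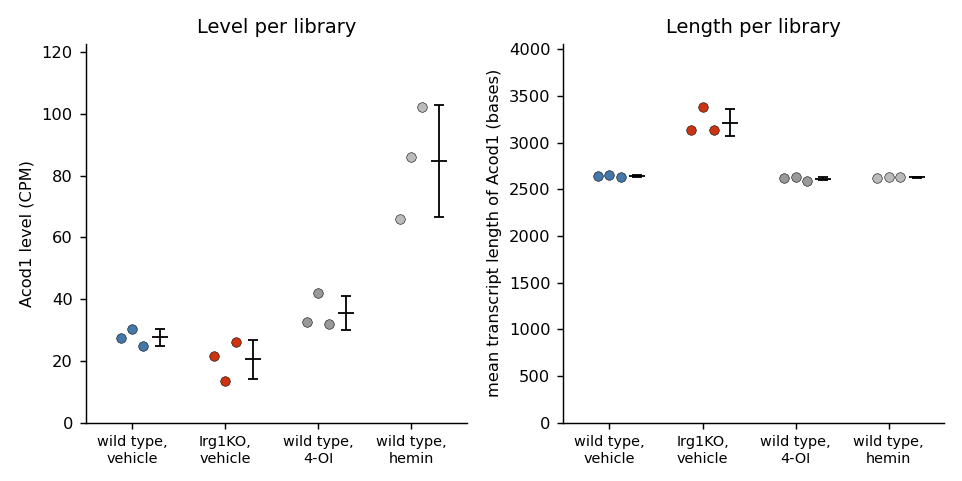
Level of Acod1 in CPM (left) and the deposited mean length of its transcripts in bases (right), 1 point per library in the 4 groups of the study, with mean ± SD (n = 3). The levels of knockout and wild-type vehicle libraries overlap, while all 3 knockout lengths (3132 to 3382 bases) lie above all 9 wild-type lengths.

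Acod1 lies on chromosome 14. The reference annotation, GRCm38.p6, places 26 protein-coding genes within 5 Mb on either side of the gene, itself included, and 18 of the others were tested. Of these, 4 were called higher and 3 lower. Kctd12, which encodes an auxiliary subunit of GABA-B receptors, was at 480.2, 498 and 514 CPM in the knockout libraries and 772, 803 and 745 CPM in the wild-type libraries (log2 fold change -0.64, SE 0.05, adjusted p = 3.81e-13). Its groups did not overlap. Called neighbours also included Ednrb (2.43), Lmo7 (2.78), Tbc1d4 (0.24), Spry2 (-0.35) and Bora (-0.50) on the log2 scale. The calls of Spry2 and Tbc1d4 were lost without knockout replicate 1 (adjusted p = 0.0626) and without wild-type replicate 2 (adjusted p = 0.0564), respectively. That of Tbc1d4 was also lost in DESeq2 (adjusted p = 0.0516) and in both fits on FPKM (0.12 and 0.10 on the log2 scale, limma adjusted p = 0.401 and 0.334). The called share of the 18, 38.9%, was near that of all tested genes, 39.8%.

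Genes of the extracellular matrix were higher. Collagens are triple helices of 3 chains; types I, II, III, V and XI form fibrils, type IV forms the sheets of basement membranes, and type VI forms beaded filaments. Of 27 tested collagen chain genes, 22 were called higher and 1 lower, with a median log2 fold change of 2.21 beside -0.0003 for all tested genes. Col1a1, a chain of type I collagen, was at 5110.2, 4916 and 4522 CPM in the knockout libraries and 862, 682 and 903 CPM in the wild-type libraries (log2 fold change 2.57, SE 0.14, adjusted p = 4.05e-07). Col3a1, the chain of type III collagen, was at 1094, 1087 and 987 CPM against 138, 115 and 144 CPM (log2 fold change 3.00, SE 0.12, adjusted p = 2.48e-08). The 3 knockout libraries were close to each other for both genes, and every one lay far above every wild-type library. Col2a1, best known from cartilage, followed the same pattern at 1001, 994 and 837 CPM against 144, 115 and 146 CPM (log2 fold change 2.81, SE 0.13, adjusted p = 1.28e-07). The type VI chains Col6a1, Col6a2 and Col6a3 rose by 2.86, 3.02 and 2.93, and the much rarer Col6a4 was not called (0.53). The basement membrane chains Col4a1 and Col4a2 rose by 2.15 and 2.06. Col18a1 rose by only 0.74, and Col19a1 was the chain called lower (-0.38), a call lost without knockout replicate 1 or 2 or wild-type replicate 1 or 2 (adjusted p 0.0665 to 0.0886) and in both fits on FPKM (limma adjusted p = 0.0797 and 0.0985).

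Summed over the list, collagen chains made up 14577 to 16457 CPM in the knockout libraries and 2429 to 2976 CPM in the wild-type vehicle libraries, a ratio of 5.67. In the WT libraries given 4-OI or hemin the sum was 2269 to 3326 CPM, so all 9 wild-type libraries lay below all 3 knockout libraries. The sum of 16 fibroblast marker genes was also higher, at 9559 to 10715 CPM against 1637 to 2003 CPM. It is not a separate measure, since it includes Col1a1, Col1a2 and Col3a1, which are also in the collagen sum. In bulk RNA, more cells of a type and more RNA per cell cannot be told apart.

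Genes that build and fix collagen fibrils accompanied the chains. Of 24 tested collagen processing genes, 23 were called higher and 1 lower, with a median of 1.81. Lox, whose enzyme crosslinks collagen and elastin, was at 862, 853 and 723 CPM in the knockout libraries and 136, 129.6 and 148 CPM in the wild-type libraries (log2 fold change 2.56, SE 0.06, adjusted p = 9.26e-23). Serpinh1, the collagen-specific chaperone HSP47, rose by 2.29, and Pcolce, which speeds the removal of the C-propeptide, rose by 2.71. Smaller differences were found too. Ppib and P4ha1 rose by 0.18 and 0.24, and Plod1 fell by 0.12, a call lost without knockout replicate 1 or 3 or wild-type replicate 3 (adjusted p 0.0601 to 0.185).

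The same held for other matrix proteins, of which 32 of 34 were called higher and 1 lower (median 2.18). Fn1, fibronectin, was at 3157, 3151 and 2792 CPM in the knockout libraries and 839, 770.2 and 871 CPM in the wild-type libraries (log2 fold change 1.88, SE 0.08, adjusted p = 2.25e-12). Thbs1 (thrombospondin 1), Sparc (osteonectin) and Fmod (fibromodulin) rose by 2.08, 2.25 and 2.88. Ogn and Aspn, small leucine-rich proteoglycans of bone and connective tissue, rose by 3.59 and 3.99. Tgfbi, a matrix protein that macrophages also make, was the exception, at 319, 296 and 345 CPM in the knockout libraries and 575, 589 and 571 CPM in the wild-type libraries (log2 fold change -0.85, SE 0.05, adjusted p = 6.91e-17). Its groups did not overlap.

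Proteases that remodel this matrix and their inhibitors were divided. Of 18 tested matrix metalloproteinase and TIMP genes, 13 were called higher and 2 lower, or 1 without knockout replicate 1 or wild-type replicate 2 (median 1.58). Timp3, an inhibitor bound to the matrix, was at 653, 708 and 541 CPM against 103, 101 and 112 CPM (log2 fold change 2.59, SE 0.09, adjusted p = 1.71e-11), and Mmp2, a gelatinase of stromal cells, rose by 2.18. Mmp8, a collagenase of neutrophils and macrophages, fell from 75.98, 85.6 and 76.95 CPM in the wild-type libraries to 34.9, 37.1 and 37.1 CPM in the knockout libraries (log2 fold change -1.13, SE 0.06, adjusted p = 4.87e-18).

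All 17 tested genes of smooth muscle and pericytes, the contractile cells of vessel walls, were called higher, with a median of 2.07. Acta2, smooth muscle actin, was at 1212, 1089 and 994 CPM in the knockout libraries and 237, 222 and 266 CPM in the wild-type libraries (log2 fold change 2.19, SE 0.10, adjusted p = 9.84e-09). Tagln, Cald1 and Myl9, whose products bind actin or form part of smooth muscle myosin, rose by 1.94, 1.97 and 2.28. Their summed level was 2588 to 3064 CPM in the knockout libraries and 667 to 749 CPM in the wild-type vehicle libraries. Contractile genes are known targets of the factor SRF, which binds the CArG box. Searched on both strands, that motif stood in the promoter of 2 of the 14 members with a RefSeq promoter sequence (14.3%). It stood in 1.6% of tested genes with a promoter and in 1.63% of 32851 mouse promoters of the same length. A match describes the sequence and is not a shown binding site. The promoter of Myl9 is shown as the member with the largest difference among the 2, 250 bases before to 50 after the transcription start in RefSeq GRCm38.p6, chr2:156775214-156775513 on the plus strand, with the CArG box in capitals.
Myl9: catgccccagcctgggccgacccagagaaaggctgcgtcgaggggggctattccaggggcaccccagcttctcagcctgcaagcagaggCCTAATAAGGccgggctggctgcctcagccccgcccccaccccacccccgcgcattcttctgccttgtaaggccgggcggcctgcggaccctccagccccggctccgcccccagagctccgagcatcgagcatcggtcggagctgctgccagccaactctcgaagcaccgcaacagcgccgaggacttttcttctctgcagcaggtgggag

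**Figure D3:**
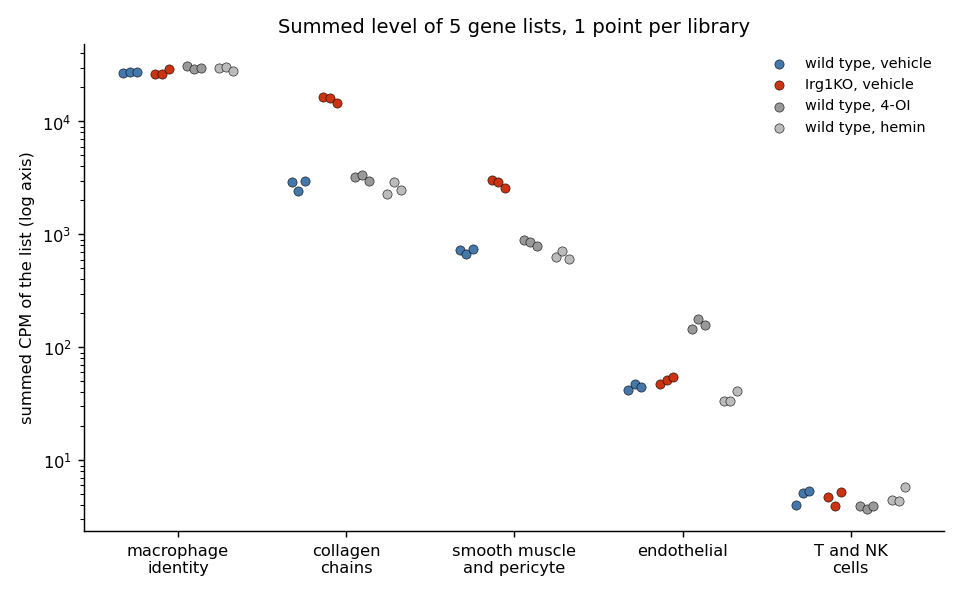
Summed CPM of the members of 5 gene lists (log axis), 1 point per library, in the 4 groups of the study. The knockout libraries lie above all others for collagen chains (14577 to 16457 CPM) and smooth muscle genes, while the groups are level for macrophage identity genes and for T and NK cell markers.

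Osteoblast lineage genes, which include Col1a1 of the collagen list, were all called higher, 11 of 11 (median 2.48). With at least 10 counts required in 6 libraries, 7 were called higher. Rare genes can pass the filter on counts through 1 group alone, which tilts the calls toward that group. Alpl, the alkaline phosphatase of mineralising cells, was at 46.6, 49.96 and 36.7 CPM against 4.11, 3.93 and 4.46 CPM (log2 fold change 3.43, SE 0.15, adjusted p = 1.54e-14), and Runx2 and Sp7, the transcription factors of bone formation, rose by 2.00 and 2.17. Spp1 (osteopontin), which macrophages also express, rose by only 0.67. Of 17 genes that mark the CXCL12-abundant reticular cells of marrow, 14 were called higher and 2 lower. The summed level of that list was 2507 to 2686 CPM in the knockout libraries and 2654 to 2690 CPM in the wild-type libraries, since members moved in opposite directions. Lpl, lipoprotein lipase, was its largest term in wild type and fell from 1357, 1338 and 1364 CPM to 779, 874 and 883 CPM (log2 fold change -0.68, SE 0.05, adjusted p = 5.08e-13), while Cxcl12, the chemokine that keeps blood stem cells in marrow, was at 110.5, 113 and 89.8 CPM against 9.12, 9.25 and 9.71 CPM (log2 fold change 3.49, SE 0.10, adjusted p = 4.53e-21).

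Most genes of signals known from stroma were higher as well. Which cells made these transcripts was not tested. Of 16 tested WNT ligands, agonists and antagonists, 15 were called higher and 0 lower (median 2.08). The 32 listed genes in the data summed to 259 to 311 CPM in the knockout libraries and 60.3 to 71.2 CPM in the wild-type vehicle libraries. Of these, 6 were at 0 in all wild-type vehicle libraries, and the limit given above for rare genes applies here too. Dkk3, a secreted WNT modulator, rose by 2.25 and the ligand Wnt5a by 1.46. Among 31 TGF-beta and BMP family genes, 21 were called higher and 5 lower (median 1.72). The ligands Tgfb2 and Tgfb3 rose by 2.25 and 2.28 and the activin chain Inhba by 1.86. Tgfb1, a ligand that macrophages make, was not called (log2 fold change 0.01, SE 0.05, adjusted p = 0.916). In the same list Id1 and Id2, inhibitors of basic helix-loop-helix factors, fell by 0.60 and 0.48.

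Growth factor and receptor genes known from stroma were called higher in 26 and lower in 3 of 31 (median 1.68). Csf1 encodes M-CSF, the growth factor that was also added to the cultures. Its transcript was at 319, 327 and 253 CPM in the knockout libraries and 85.6, 86.6 and 85.2 CPM in the wild-type libraries (log2 fold change 1.81, SE 0.10, adjusted p = 2.52e-08). Among 14 genes of the insulin-like growth factor system, 10 were called higher and 2 lower (median 2.35). Igf1, a growth factor made by macrophages, was one of the 2, at 272, 288 and 304 CPM against 382, 391 and 389 CPM (log2 fold change -0.43, SE 0.05, adjusted p = 5.19e-09), while Pappa, a protease that frees IGF from its binding proteins, rose by 2.58.

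Across the 14 stromal and matrix lists, which share members, 240 different genes were tested, 203 were called higher and 17 lower. The log2 fold changes of the 203 had a median of 2.09 and quartiles of 1.62 and 2.46. These genes made up 179 of the 1400 called and at least 2-fold higher.

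**Figure D4:**
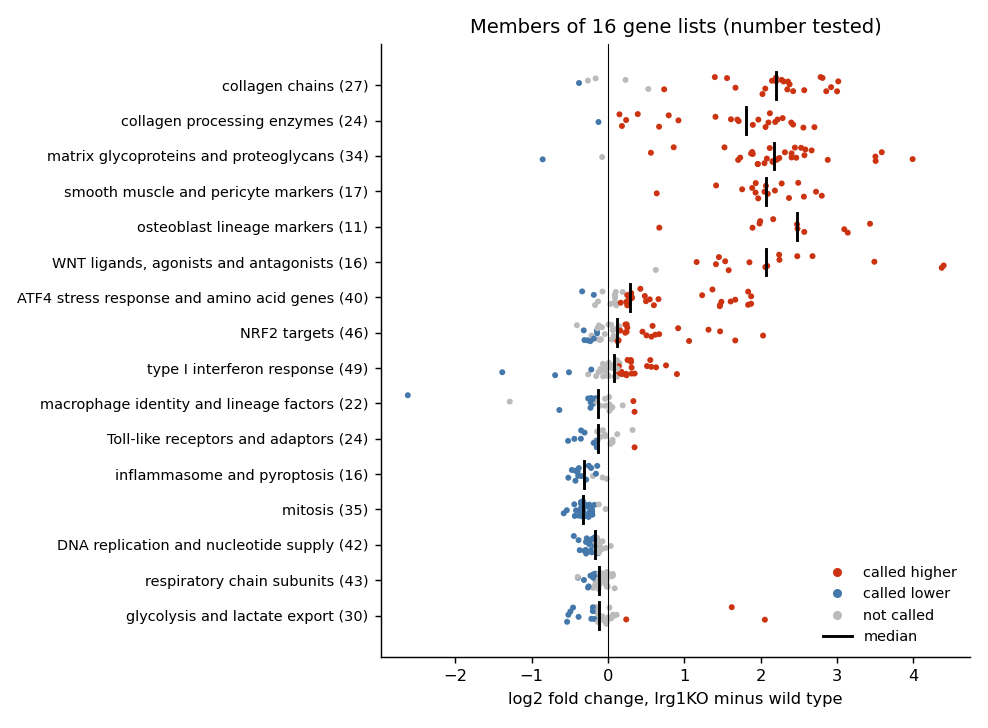
Log2 fold change, knockout minus wild type, of each tested member of 16 gene lists, with the number tested in parentheses, the list's median as a bar and the call as the colour. Matrix, contractile, bone and WNT lists have medians from 1.81 to 2.48, the medians of the other lists lie between -0.32 and 0.29, and nearly all mitosis and inflammasome genes are below 0.

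Markers of other cells of marrow and connective tissue were less uniform. Endothelial markers summed to 47.9 to 55.2 CPM in the knockout libraries and 42.3 to 47.4 CPM in the wild-type libraries, and of 9 tested 1 was called higher and 3 lower (0 lower without knockout replicate 1, 1 without knockout replicate 2 or wild-type replicate 2). Neutrophil markers summed to 94.6 to 105.9 CPM against 132.1 to 145.3 CPM, of which Mmp8 is the largest term in wild type, with 2 of 9 called higher, or 0 without wild-type replicate 1 and 1 without knockout replicate 1 or 3 or wild-type replicate 3, and 3 lower. T and NK cell markers summed to 3.97 to 5.21 CPM against 4.05 to 5.33 CPM, with Zap70, Gzma and Prf1 at 0 in all 6 libraries and 0 of 2 tested called. Cartilage markers summed to 935 to 1116 CPM against 131 to 164 CPM and were called higher in 4 of 6 tested, through the collagens Col2a1, Col11a1 and Col10a1 and through Comp. Adipocyte markers summed to 912 to 1020 CPM in the knockout libraries and 1479 to 1499 CPM in the wild-type libraries, with 3 of 5 called higher and 2 lower, and Cidec and Cfd were at 0 in all 6 libraries. The part of these cells in the differences below was not tested.

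The macrophage identity list checks the labelled cell type. Its 22 tested genes summed to 26071 to 29174 CPM in the knockout libraries and 26956 to 27597 CPM in the wild-type libraries. Lyz2 (lysozyme), Itgam (CD11b) and Cd68 had log2 fold changes of 0.02, -0.03 and -0.04, none called. Within the list, 9 genes were called lower and 2 higher (median -0.13). Cx3cr1, the fractalkine receptor, was at 31.9, 34.7 and 27.6 CPM in the knockout libraries and 185, 205 and 192 CPM in the wild-type libraries (log2 fold change -2.62, SE 0.09, adjusted p = 8.40e-13). Csf1r, the receptor of M-CSF, was at 1893, 1889 and 1911 CPM against 2111, 2374 and 2134 CPM (log2 fold change -0.22, SE 0.05, adjusted p = 3.32e-04). Cx3cr1 was thus lower by far more than Csf1r, and neither had overlapping groups. Adgre1 (F4/80) and Cd14 were the 2 called higher, by 0.33 and 0.35.

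Receptors that steer macrophages to chemoattractants were called lower in 9 and higher in 3 of 21. The shares were 42.9% and 14.3%, beside 16.3% and 23.5% of all tested genes. P2ry12, a purine receptor, fell by 0.51 and the complement receptor C5ar1 by 0.21. Formyl peptide receptors, which sense bacterial and mitochondrial peptides, went the other way. Fpr1 was at 62.5, 55.2 and 75.96 CPM in the knockout libraries and 23.4, 25.2 and 31.1 CPM in the wild-type libraries (log2 fold change 1.29, SE 0.16, adjusted p = 1.40e-04). Fpr2 was at 41.00, 41.5 and 50.2 CPM against 21.4, 22.7 and 31.7 CPM (log2 fold change 0.83, SE 0.18, adjusted p = 0.00442). For both, replicate 3 was the highest library within each genotype. Its collagen sum was the lowest of the knockout libraries (14577 CPM) but the highest of the wild-type vehicle libraries (2976 CPM). A link with the collagen sum was not tested.

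**Figure D5:**
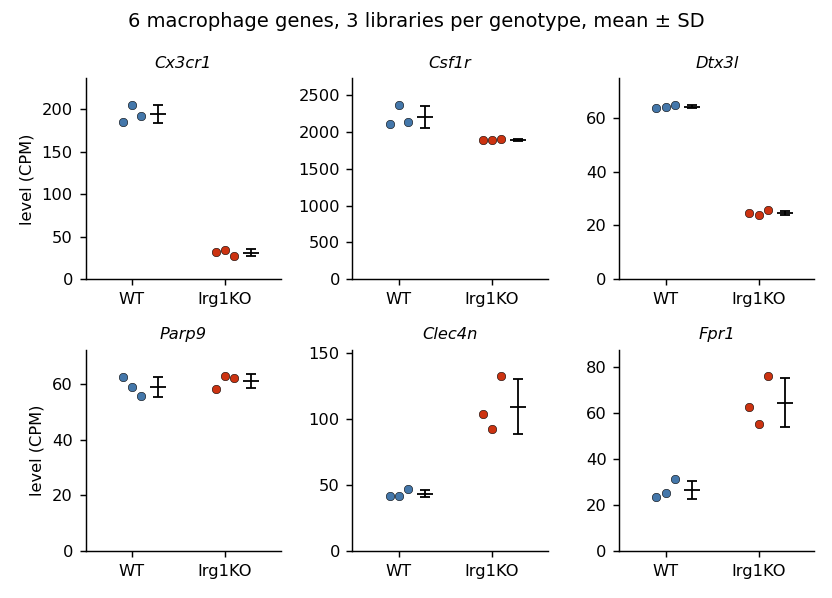
Level in CPM of 6 macrophage genes, 1 point per library, in wild-type (WT) and Irg1KO vehicle libraries, with mean ± SD (n = 3). Cx3cr1, Csf1r and Dtx3l are lower in all 3 knockout libraries, Clec4n and Fpr1 are higher, and the groups overlap for Parp9.

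Chemokine genes were called higher in 10 and lower in 6 of 22 (45.5% and 27.3%, beside 23.5% and 16.3% of all tested genes). Abundant members differed in both directions: Ccl6, a myeloid chemokine, was at 599, 608 and 689.7 CPM against 415, 411 and 433 CPM (log2 fold change 0.59, SE 0.08, adjusted p = 1.86e-05), and Ccl2, which draws monocytes, at 448, 513 and 535 CPM against 721, 633 and 726 CPM (log2 fold change -0.47, SE 0.06, adjusted p = 1.66e-06). Of 27 NF-kB cytokines and feedback inhibitors, 9 were called higher and 4 lower (2 lower without knockout replicate 1). Tnf, an early inflammatory cytokine, was not called (log2 fold change -0.10, SE 0.07, adjusted p = 0.317). Il1rn, the antagonist of the interleukin 1 receptor, was at 54.1, 51.8 and 45.6 CPM in the knockout libraries and 14.1, 16.7 and 16.4 CPM in the wild-type libraries (log2 fold change 1.68, SE 0.09, adjusted p = 3.59e-18).

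Inflammasomes are cytosolic sensor complexes that activate caspase 1. Of 16 tested genes, 13 were called lower and 0 higher, with a median of -0.32; 16.3% of all tested genes were called lower. The adaptor Pycard (ASC) was at 30.9, 29.7 and 28.3 CPM in the knockout libraries and 41.3, 42.5 and 39.4 CPM in the wild-type libraries (log2 fold change -0.47, SE 0.08, adjusted p = 1.37e-05). The DNA sensor Aim2 was at 32.2, 33.3 and 36.4 CPM against 48.99, 42.6 and 45.3 CPM (log2 fold change -0.42, SE 0.08, adjusted p = 2.06e-05). Groups did not overlap for either. Nlrp1b fell by 0.52, Casp1 by 0.28 and the substrate Il18 by 0.38, while Nlrp3, the sensor most studied in macrophages, fell by only 0.14, a call lost without knockout replicate 1 or 2 or wild-type replicate 2 or 3 (adjusted p 0.0693 to 0.169). Ninj1, which ruptures the membrane, was not called (-0.07). The genes are expressed by macrophages. In the same libraries the macrophage identity list had a median of -0.13 and a summed level 0.998 times that of wild type. The part of macrophage share in the inflammasome values was not tested.

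Toll-like receptors and their adaptors were called lower in 9 and higher in 1 of 24 (median -0.13). The shares were 37.5% and 4.17%, beside 16.3% and 23.5% of all tested genes. Cd180, a TLR4 homologue, fell by 0.44, and Tlr13, the sensor of bacterial ribosomal RNA, by 0.35. Tlr4 itself and the adaptor Myd88 were not called (-0.06 and -0.04).

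Of 49 tested interferon-stimulated genes, 20 were called higher (40.8% beside 23.5% of all tested genes), 4 lower and 25 not called (median 0.09). Without wild-type replicate 2, and in both fits on FPKM, 13 were called higher. Irf7, the factor that amplifies the response, was at 218, 227 and 252 CPM in the knockout libraries and 194, 167 and 187 CPM in the wild-type libraries (log2 fold change 0.35, SE 0.08, adjusted p = 0.00124). Ifit1, Isg15 and Usp18, antiviral effectors and a feedback protease, rose by 0.63, 0.57 and 0.56. Dtx3l, a ubiquitin ligase, stood apart at 24.4, 23.8 and 25.6 CPM against 63.7, 63.9 and 64.9 CPM (log2 fold change -1.38, SE 0.07, adjusted p = 5.16e-19). Parp9, its binding partner, whose gene lies head to head with it, was at 58.2, 62.7 and 62.3 CPM against 62.5, 58.8 and 55.5 CPM and was not called (log2 fold change 0.05, SE 0.06, adjusted p = 0.569). Parp14, of the same family, was at 170.4, 178 and 179 CPM against 245, 258 and 248 CPM (log2 fold change -0.51, SE 0.05, adjusted p = 2.11e-11). These 3 genes, all induced by interferon, thus did not move together. Guanylate-binding and immunity-related GTPases, which attack intracellular microbes, were called higher in 5 and lower in 3 of 15 (1 lower without knockout replicate 2), with Gbp2 up by 0.69 and Iigp1 down by 0.70.

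Pattern receptors of the lectin, TREM and CD300 families were called higher in 6 and lower in 8 of 26, shares of 23.1% and 30.8% beside 23.5% and 16.3% of all tested genes. Clec4n (dectin-2), a receptor of fungal mannans, was at 104, 92.3 and 133 CPM in the knockout libraries and 41.9, 41.9 and 46.8 CPM in the wild-type libraries (log2 fold change 1.33, SE 0.14, adjusted p = 3.02e-05). Trem1, an amplifier of inflammatory signals, was at 6.36, 7.83 and 5.61 CPM against 15.7, 17.7 and 16.3 CPM (log2 fold change -1.31, SE 0.12, adjusted p = 8.97e-12). Clec12a, an inhibitory receptor, fell by 0.43, and Trem2 fell by 0.16. Among 20 scavenger and efferocytosis receptors, 4 were called higher (20.0%) and 6 lower (30.0%). Stab1 fell by 0.39, while the abundant Msr1 was not called (-0.07).

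Genes of MHC class II and co-stimulation were called lower in 5 and higher in 3 of 14. The shares were 35.7% and 21.4%, beside 16.3% and 23.5% of all tested genes. Cd74, the invariant chain, was at 22.3, 21.01 and 24.1 CPM in the knockout libraries and 33.1, 31.2 and 33.7 CPM in the wild-type libraries (log2 fold change -0.54, SE 0.08, adjusted p = 2.96e-07). MHC class I genes were called higher in 7 (30.4%) and lower in 6 (26.1%) of 23, with 10 not called. H2-D1, H2-K1 and B2m, which form the surface molecules, rose by 0.35, 0.25 and 0.26, and Calr, a chaperone that helps load peptides onto them, fell by 0.22. Of 24 Fc receptor and complement genes, 10 were called higher and 5 lower. The C1q chain C1qc fell by 0.20, and C3, the central complement protein, rose by 0.51. Integrins were called higher in 8 and lower in 3 of 20; Itga11, a collagen receptor of fibroblasts, rose by 2.56, and Itga6, Itga4 and Itgal fell by 0.55, 0.33 and 0.29.

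Metabolic genes around itaconate changed little. Of 10 tested genes of itaconate synthesis, transport and breakdown, Abcg2, an exporter, was the only one called, at 0.30, and this call was lost without wild-type replicate 2 (adjusted p = 0.132) and in both fits on FPKM. Among 17 tested TCA cycle genes, 4 were called lower, or 2 without knockout replicate 3, and 1 higher. Idh3b and Idh2, which make 2-oxoglutarate, fell by 0.28 and 0.24. Pcx, pyruvate carboxylase, which refills the cycle with oxaloacetate, was at 11.6, 11.8 and 10.2 CPM in the knockout libraries and 8.16, 8.30 and 6.91 CPM in the wild-type libraries (log2 fold change 0.51, SE 0.11, adjusted p = 2.85e-04). The lists named 30 TCA cycle and 76 respiratory chain genes, and those not tested were not analysed here. Respiratory chain subunits were called lower in 11 and higher in 0 of 43 (median -0.11), with Ndufa12 of complex I falling by 0.39. The share called lower was 25.6%, beside 16.3% of all tested genes. Glycolysis and lactate export genes were called lower in 11 and higher in 3 of 30 (median -0.12). The shares were 36.7% and 10.0%, beside 16.3% and 23.5% of all tested genes. Pdk1, which restrains entry of pyruvate into the cycle, was at 57.5, 59.1 and 57.2 CPM against 78.4, 84.7 and 85.96 CPM (log2 fold change -0.52, SE 0.06, adjusted p = 6.10e-10). The hexokinases Hk2 and Hk3 fell by 0.22 and 0.38, while Gapdh and Pkm were not called (-0.07 and -0.06). Vegfa and Hif1a were among the 3 higher, at 1.62 and 0.24.

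NRF2 targets were called higher in 21 and lower in 7 of 46, a share higher of 45.7% beside 23.5% of all tested genes, with a median of 0.11. The summed level of the list did not differ. It was 32145 to 34228 CPM in the knockout libraries and 32029 to 33794 CPM in the wild-type vehicle libraries, a ratio of 1.002. Nqo1, a quinone reductase, was at 31.6, 31.8 and 31.9 CPM in the knockout libraries and 20.1, 22.7 and 20.2 CPM in the wild-type libraries (log2 fold change 0.59, SE 0.08, adjusted p = 9.52e-08). Me1, which makes NADPH, was at 68.3, 74.1 and 71.1 CPM against 33.9, 33.6 and 34.9 CPM (log2 fold change 1.06, SE 0.06, adjusted p = 3.66e-17). Ephx1, an epoxide hydrolase, was at 52.1, 46.3 and 50.6 CPM against 18.7, 19.98 and 21.2 CPM (log2 fold change 1.32, SE 0.07, adjusted p = 1.82e-17). Groups did not overlap for any of the 3. Hmox1, also induced through NRF2, was not called (0.08), and Gclc, which starts glutathione synthesis, fell by 0.23. Nfe2l2, the gene of NRF2, was not called (0.07), and its inhibitor Keap1 fell by 0.19. The collagen list was 5.67-fold higher in the same libraries, and its part in these differences was not tested.

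Iron genes were called higher in 8 and lower in 5 of 31, shares of 25.8% and 16.1% that are near those of all tested genes (23.5% and 16.3%). Of the 8, 4 were at least 2-fold higher, with Hp, haptoglobin, at 3.43. Only 2 were called lower without knockout replicate 3 or wild-type replicate 3, and 3 without knockout replicate 1 or wild-type replicate 2. The ferritin light chain Ftl1 fell by 0.26 and the heavy chain Fth1 rose by 0.25, with overlapping groups for Fth1. The transferrin receptor Tfrc, which brings iron into cells, was at 549, 589.9 and 608 CPM in the knockout libraries and 437, 430.3 and 419 CPM in the wild-type libraries (log2 fold change 0.44, SE 0.05, adjusted p = 4.83e-09).

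Cholesterol synthesis genes were called higher in 11 and lower in 2 of 26, mostly by small amounts (median 0.14). Without knockout replicate 3 or wild-type replicate 1, 7 were called higher and 1 lower. Fdps and Sc5d, enzymes of the pathway, rose by 0.39 and 0.37. Of 20 LXR targets and efflux genes, 7 were called higher and 5 lower. Scd1, stearoyl-CoA desaturase, was at 46.4, 42.1 and 43.4 CPM against 10.6, 8.47 and 9.53 CPM (log2 fold change 2.21, SE 0.09, adjusted p = 6.89e-22), and Scd2 rose by 1.10. The cholesterol exporter Abcg1 fell by 0.62.

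ATF4 is the transcription factor of the integrated stress response and turns on amino acid synthesis and transport. Of 40 tested genes of that response, 26 were called higher and 2 lower (65.0% higher beside 23.5% of all tested genes), with a median of 0.29. Atf4 itself was at 133, 118 and 133 CPM in the knockout libraries and 106, 98.4 and 105 CPM in the wild-type libraries (log2 fold change 0.31, SE 0.05, adjusted p = 7.18e-06). Slc1a4, a transporter of alanine and serine, was at 23.1, 22.7 and 19.03 CPM against 6.91, 5.28 and 6.21 CPM (log2 fold change 1.84, SE 0.12, adjusted p = 4.59e-16). Phgdh, which starts serine synthesis, was at 26.8, 26.6 and 23.1 CPM against 9.89, 9.73 and 10.1 CPM (log2 fold change 1.37, SE 0.10, adjusted p = 1.00e-14). In all 3 cases every knockout library lay above every wild-type library. Asns (asparagine synthetase) and Trib3, an inhibitor of ATF4, rose by 0.66 and 1.24. Atf3, a factor induced by ATF4, was instead called lower, at 50.8, 56.6 and 59.5 CPM against 65.2, 72.5 and 73.3 CPM (log2 fold change -0.34, SE 0.06, adjusted p = 2.22e-05). The stromal lists were higher in the same 3 libraries, and their part in these values was not tested.

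ATF4 with a C/EBP partner binds the element TGATGNAA, called CARE. Searched on both strands, that element stood in the promoter of 12 of the 33 members with a RefSeq promoter sequence (36.4%). It stood in 2.83% of 9697 tested genes and 3.97% of the 32851 promoters searched. A match is a description of the sequence and not a shown binding site. The share among members rests on list membership and not on the fold changes. The 2 members with the largest differences among those that hold it are shown, with the element in capitals. The promoter of Vldlr, a lipoprotein receptor gene that rose by 1.84, is at chr19:27216770-27217069 on the plus strand, and that of Slc1a4 is at chr11:20332664-20332963 on the minus strand. The element begins 200 bases before the start in Vldlr and 4 bases before it in Slc1a4.
Vldlr: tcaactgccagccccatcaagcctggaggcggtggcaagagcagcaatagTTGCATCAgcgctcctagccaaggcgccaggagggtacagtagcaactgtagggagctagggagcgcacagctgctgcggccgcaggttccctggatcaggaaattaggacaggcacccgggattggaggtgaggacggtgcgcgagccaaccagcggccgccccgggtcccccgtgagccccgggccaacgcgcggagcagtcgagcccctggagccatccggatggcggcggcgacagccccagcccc
Slc1a4: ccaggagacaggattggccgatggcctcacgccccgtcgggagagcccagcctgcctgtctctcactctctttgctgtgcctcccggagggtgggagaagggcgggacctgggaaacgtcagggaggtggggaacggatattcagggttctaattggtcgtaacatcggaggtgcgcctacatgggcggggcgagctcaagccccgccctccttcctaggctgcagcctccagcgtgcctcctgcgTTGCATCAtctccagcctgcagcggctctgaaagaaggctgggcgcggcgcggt

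Chaperones of the endoplasmic reticulum, which answer to other arms of the unfolded protein response, did not follow. Of 29 tested, 10 were called lower and 4 higher (median -0.08). Hsp90b1 and Calr fell by 0.24 and 0.22. Sec23a and Sec24d, coat proteins of the vesicles that carry procollagen, rose by 0.62 and 0.31.

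Genes of mitosis were lower nearly throughout, with 33 of 35 called lower and 0 higher (94.3% lower beside 16.3% of all tested genes) and a median of -0.32. Kif23, a motor of the central spindle, was at 52.6, 52.97 and 54.8 CPM in the knockout libraries and 75.4, 78.9 and 85.8 CPM in the wild-type libraries (log2 fold change -0.58, SE 0.06, adjusted p = 1.67e-09). Ccnb2, a cyclin of mitosis, was at 43.2, 44.7 and 42.1 CPM against 60.3, 66.4 and 62.00 CPM (log2 fold change -0.54, SE 0.06, adjusted p = 3.09e-09). Mki67, the gene of the proliferation antigen Ki-67, was at 578, 549 and 540.1 CPM against 614, 658 and 650.3 CPM (log2 fold change -0.21, SE 0.05, adjusted p = 0.00117). The groups did not overlap for any of them. Bub3 and Anln were the 2 members not called; Anln was called with RLE factors (adjusted p = 0.0346). Genes of DNA replication were called lower in 25 and higher in 0 of 42 (median -0.17), with Pcna, the sliding clamp, falling by 0.31 and Tk1, which supplies thymidine nucleotides, by 0.45.

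The promoters of mitotic genes carry the element TTTGAA, called CHR, through which the DREAM and MuvB complexes act. On both strands it stood in the promoter of 24 of the 31 members with a RefSeq promoter sequence (77.4%), against 14.7% of tested genes and 17.9% of the promoters searched. The CCAAT element that often accompanies it stood in 24 of 31 members too (77.4%), against 43.4% and 37.4%. These matches describe the sequence and are not shown binding sites. Such shares rest on list membership and not on the fold changes. The 2 members with the largest differences among those that hold CHR are shown, with that element in capitals. The promoter of Kif23 is at chr9:61946750-61947049 on the minus strand and that of Ccnb2 at chr9:70421505-70421804 on the minus strand. One copy stands 2 bases after the start in Kif23, and copies stand 167 bases before and 4 after it in Ccnb2.
Kif23: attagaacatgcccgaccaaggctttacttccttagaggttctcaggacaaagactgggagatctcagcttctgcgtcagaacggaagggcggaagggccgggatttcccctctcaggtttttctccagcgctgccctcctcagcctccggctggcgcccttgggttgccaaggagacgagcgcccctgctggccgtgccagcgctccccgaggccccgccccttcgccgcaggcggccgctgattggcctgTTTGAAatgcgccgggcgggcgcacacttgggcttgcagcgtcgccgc
Ccnb2: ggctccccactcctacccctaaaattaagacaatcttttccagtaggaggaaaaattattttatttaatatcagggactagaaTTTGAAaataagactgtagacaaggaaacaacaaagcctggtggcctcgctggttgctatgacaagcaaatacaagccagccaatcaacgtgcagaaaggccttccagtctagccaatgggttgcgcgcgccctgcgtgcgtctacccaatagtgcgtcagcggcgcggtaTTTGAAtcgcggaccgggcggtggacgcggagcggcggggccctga

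Of 11 tested genes of cell cycle inhibitors and senescence, 5 were called higher and 3 lower. Cdkn1a (p21) and Cdkn1b (p27) were not called (-0.08 and 0.15), although Cdkn1a was called lower without wild-type replicate 1 (adjusted p = 0.0407), and Cdkn2c and Cdkn2d, of the INK4 family, fell by 0.42 and 0.35. The neighbouring INK4 genes Cdkn2a and Cdkn2b rose, Cdkn2b from 1.13, 1.30 and 1.14 CPM in the wild-type libraries to 5.93, 7.04 and 4.82 CPM in the knockout libraries (log2 fold change 2.31, SE 0.21, adjusted p = 1.68e-11). Of 23 p53 targets, 11 were called higher and 2 lower, or 1 without knockout replicate 2 or wild-type replicate 3 and 4 with RLE factors, in both fits on FPKM and with no filter (median 0.18); Mdm2 and Bax were not called (-0.07 and 0.05), and Phlda3 rose by 1.498.

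Some genes with fixed roles served as a check of the libraries. Cytosolic ribosomal proteins were called in 7 of 53, 1 higher and 6 lower (median -0.03); 3 were called lower without knockout replicate 1 or 3 or wild-type replicate 1 or 3. Other settings called more of them lower: 11 in DESeq2, 10 with RLE factors, 13 with only the 6 libraries and 19 without a filter on low counts. The 1 higher ranged from 0 (DESeq2, RLE factors, or without any single knockout replicate) to 4 (without a filter), and was 2 without wild-type replicate 1. All 4 tested genes of the Y chromosome were detected in every library of both genotypes, and none was called. Of 9 genes known to differ between C57BL/6 substrains, 2 were called lower, Cyfip2 at -0.54 and Dock2 at -0.23, and 4 without wild-type replicate 2. Nnt, which carries a deletion in C57BL/6J mice, was at 30.4, 28.1 and 33.5 CPM in the knockout libraries and 33.7, 34.2 and 33.2 CPM in the wild-type libraries and was not called (log2 fold change -0.14, SE 0.07, adjusted p = 0.113), but it was called lower without knockout replicate 3 (adjusted p = 0.0299).

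The 12 genes with the lowest fold change among those averaging 20 CPM or more included Cx3cr1, Dtx3l, Mmp8 and Tgfbi, given above. Parvg, a partner of integrin-linked kinase in blood cells, was at 14.03, 14.99 and 20.6 CPM in the knockout libraries and 46.5, 40.1 and 44.2 CPM in the wild-type libraries (log2 fold change -1.41, SE 0.09, adjusted p = 1.72e-13). Abi3, part of actin-nucleating complexes, was at 16.5, 18.6 and 19.03 CPM against 34.3, 35.9 and 34.3 CPM (log2 fold change -0.95, SE 0.07, adjusted p = 2.39e-13). Arhgap15, which switches off Rac, was at 21.3, 22.3 and 21.1 CPM against 40.3, 40.8 and 40.6 CPM (log2 fold change -0.91, SE 0.07, adjusted p = 3.09e-13). Pald1, a phosphatase-like gene, fell by 1.02 and Zranb3, a DNA repair helicase gene, by 0.82. Their groups did not overlap. The remaining 3, Cep85 (-1.21), Tmem181b-ps (-1.08) and Dynlt1b (-0.88), had no whole count in any of the 6 libraries, so reads may have been divided among near-identical features and the values are uncertain. On the higher side, outside the lists, Lrrc32 (GARP), which tethers latent TGF-beta, rose by 2.92, and Svep1, a large adhesion protein, by 3.16. Only 8 of the 52 genes called and at least 2-fold lower had a mean of at least 20 CPM, against 251 of the 1400 on the higher side.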

How the data were processed

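RNA was taken from the cells with TRIzol and made into libraries by MGI protocols, per the labels' protocols. The submitters' processing notes name HISAT2, StringTie, Bowtie2 and RSEM, and the builds GRCm39 and mm39. Strandedness, the annotation and the treatment of multiply mapped reads are not given in the sources used here. The deposited expected counts are RSEM estimates per gene; 90.62 to 92.03% of them were whole in each library, and all were rounded for testing. The deposited FPKM, which adjust these for length and depth, served only as an alternative. Genes that a file does not list entered as 0. RSEM's gene length is the mean over transcripts weighted by abundance.

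edgeR 4.0.16 (R 4.3.3, limma 3.58.1) fitted the 12 libraries together, 1 mean per group, with filterByExpr, TMM factors and the robust quasi-likelihood F test. Benjamini-Hochberg adjustment ran over 12148 genes. The SE was obtained from each gene's log2 fold change and its F. The biological coefficient of variation came to 4.71%. Replicates differed by 2.40 to 4.88 times counting noise (chi-square per degree of freedom), so all were kept as separate. In a test on simulated data for this comparison, with 50 genes planted at each size, 42 were recovered at 0.5, 34 at -0.5, 49 at 1 and 46 at -1 on the log2 scale, and 18 of 11551 unchanged genes were called. That simulation changed few genes, as many up as down, and left out the rarest. In the data 4833 genes were called, and 1400 were at least 2-fold higher against 52 lower. The simulated rates cannot be carried over to that setting.

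The comparison and its gene lists were chosen with earlier results of these data known. There were 62 lists with 1459 different symbols; 1323 were found in the files, 3 of them through a RefSeq synonym, and 1142 were tested. Names followed a rule. It took Acod1, then 12 called genes from either end of the fold changes, provided that they averaged 20 CPM or more and the groups did not overlap. Of each list it took up to 5 members by adjusted p, up to 5 by level and the called extremes. These were named after their values were seen: Abcg1, Adam10, Adam17, Adamts10, Adamts5, Asns, Atf4, Bub3, Cd68, Cdkn1b, Cdkn2a, Cdkn2d, Col18a1, Col4a1, Col4a2, Col6a4, Fpr1, Fpr2, Gclc, Hk2, Id2, Il18, Itga4, Mmp2, Myd88, Myl9, Nqo1, P4ha1, Parp9, Ppib, Sema4a, Sema4d, Spry2, Tbc1d4, Tlr4, Tnf, Trib3, Usp18, Vldlr, Arglu1 and Rbm4b. Promoters and neighbouring genes are from RefSeq, build GRCm38.p6. Promoters without a gene symbol and those of 1 chromosome were not searched. A gene held a motif if any of its promoters did, whereas the share of promoters counted each promoter. Python 3.11.15, pandas 2.3.3 and matplotlib 3.10.9 were used. Alternatives were DESeq2 1.42.0, RLE or upper-quartile factors, TMM without stromal genes, limma-trend on FPKM after adding 1 or 0.1 and taking log2, other filters, only the 6 libraries, a replicate block and leaving out each library. Some genes that the naming rule selects are not reported here.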

Additional observations from a re-analysis of the deposited data

How the results depend on the processing

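The counts of genes called higher and lower, 2850 and 1983, moved by under 1.5 times in every alternative run. DESeq2 gave 2462 and 2091, and RLE factors 2674 and 2447. With 1 library left out they were 2612 to 2756 and 1591 to 1844. The counts at least 2-fold higher and lower, 1400 and 52, were 1395 to 1487 and 49 to 64 with 1 library left out. They fell to 583 and 14 in limma-trend on log2(FPKM + 1), where the pseudocount shrinks the fold of low genes, and the lower count rose to 80 with no filter on low counts, where 16120 genes were tested. The Acod1 log2 fold change was -0.69 to -0.23 with 1 library left out. It was called at -0.71 with 1 added to FPKM and -0.79 with 0.1 added, values that divide by the longer transcript, and at -0.50 with no filter; the cause of the last was not tested.

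Deviations of same-numbered libraries from their group means correlated at 0.01, -0.08 and -0.07, which shows no pairing by replicate number. With 3 libraries per group these values cannot exclude a shared batch, so the pairing remains unknown. With the replicate block 2864 genes were called higher and 2015 lower, 1397 and 50 of them at least 2-fold, and Acod1 was at -0.49. The block changed the call of none of the 196 genes named with a test.

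Among the 196 genes, 2 near 0 that were not called changed sign. Lyz2 was at -0.009 in DESeq2, with RLE factors and in both FPKM fits, at -0.010 with no filter, and at -0.066 to 0.060 with 1 library left out. Tgfb1 was at -0.017 in DESeq2 and with RLE factors, at -0.018 in both FPKM fits and with no filter, and at -0.042 to 0.058 with 1 library left out. The medians of the chemokine and integrin lists, 0.21 and 0.03, turned to -0.01 and -0.02 in the fit of only the 6 libraries. RLE factors moved the median of all genes by -0.025. Depth limits genes under 1 CPM: 495 tested genes had such a mean, where 1 CPM is 11 to 22 counts per library.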

Other observations

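Some gene families, chosen after their values were seen, are given here; a few of their members also stand in the lists. HOX genes, which record position along the body axis, were called higher in 13 and lower in 0 of 16 tested (median log2 fold change 1.69). All were at a mean of 0.62 to 3.56 CPM. Genes so rare can pass the filter on counts through 1 group alone, which tilts the calls toward that group. Of all 495 tested genes under 1 CPM, 203 were called higher and 19 lower (median 0.66). Of the 1699 at 1 to 5 CPM, these were 727 and 94 (median 0.355). The ADAMTS and ADAMTS-like genes, secreted proteases and related proteins of the matrix, were called higher in 13 and lower in 1 of 14 (median 2.04), from Adamts5 (2.81) to Adamts10 (-0.40). Their membrane-bound relatives, the ADAM genes, did not share this: 3 of 11 were called higher and 5 lower (median -0.11), and the sheddases Adam10 and Adam17 fell by 0.29 and 0.27. Clustered protocadherins, adhesion proteins known from neurons, were called higher in 20 and lower in 0 of 24 (median 1.46), although these genes share exons and near-identical sequence, so that reads may be divided among them. Semaphorins of class 3, which are secreted, were called higher in 5 of 5 (median 2.04), at means of only 0.26 to 2.85 CPM. Those of class 4, at 5.9 to 104 CPM, were called higher in 2 and lower in 2 of 5 (median -0.18). The lower ones were Sema4a and Sema4d, which fell by 0.48 and 0.45. The classes thus differ in level, and class 3 has the limit given for HOX genes. Mitochondrial solute carriers hardly differed, with 0 of 30 called higher and 3 lower (median 0.00).

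Other lists gave mixed counts, to be set beside 23.5% called higher and 16.3% called lower of all tested genes. Immediate early genes were called higher in 12 and lower in 3 of 26; Fosl2 rose by 0.98 and Egr1 by 1.08, while Fos and Jun were not called (0.10 and 0.03). Of 16 circadian clock genes, 4 were called higher and 2 lower, or 1 without knockout replicate 3 or wild-type replicate 1 or 2, with Nr1d1 at 0.50 and Nfil3 at 1.19. Cytosolic heat shock proteins were called higher in 8 and lower in 0 of 18, chiefly the small heat shock genes Hspb1 (1.64), Hspb8 (2.00) and Cryab (1.68), while Hsp90aa1 was not called (-0.04). Osteoclast markers were called higher in 5 and lower in 1 of 10 (2 without knockout replicate 1): Ctsk, the osteoclast collagenase, rose by 1.70, and Tnfrsf11a, the receptor RANK, fell by 0.34. Lysosome and autophagy genes were called higher in 9 and lower in 6 of 42 (median 0.03). These shares, 21.4% and 14.3%, were near those of all tested genes. DESeq2 called 11 lower, RLE factors 10 lower, and both fits on FPKM 5 higher. Genes of alternative activation were called higher in 3 and lower in 2 of 14 (1 without wild-type replicate 2). Their shares, 21.4% and 14.3%, were likewise near those of all tested genes. Mrc1, the mannose receptor, was not called (0.06).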
